A study of Rattus norvegicus with 8 samples.

Results

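The heat-shock proteins and chaperones described here are 10 rat genes, Hspa1b, Hspa8, Hsph1, Bag3, Hspb1, Dnajb1, Hspa5, Cryab, Hspd1 and Hspe1, out of 18337 genes named on the array. All probes carrying these gene names in the files were taken, which gave 17 probes. RNA came from medial thalamus taken from male Sprague-Dawley rats that were conscious in the sessions. In the occlusion group, the trachea of 4 rats was blocked for 3 to 10 breaths again and again, with about 30 s of recovery each time, on each of 10 days. The 4 control rats, surgical controls by their label, went through the daily sessions without occlusions, and the protocol places the killing within 10 min of the end of the last session. Each rat gave 1 single-colour Agilent array, and each of 2 slides carried 2 occlusion and 2 control arrays.

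Chaperones bind unfolded or partly folded proteins and help them fold, travel or be degraded. When unfolded proteins build up in the cytosol, the transcription factor HSF1 binds heat-shock elements, inverted repeats of a short unit, in the promoters of many chaperone genes. Unfolded proteins in the endoplasmic reticulum act instead through the unfolded protein response, which reaches Hspa5 and its partners through a separate promoter element. In brain, some chaperones are made constantly and at a high level, whereas others are mainly made after stress.

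Windows at the promoters were searched for matches to these elements. RefSeq promoter windows of assembly GRCr8, from 250 bases before to 50 bases after the start of the gene, were found for 8 of the 10 members, without Hspa1b and Cryab. A pair of inverted heat-shock units was searched on both strands as GAANNTTC or TTCNNGAA, and 3 alternating units as GAANNTTCNNGAA or TTCNNGAANNTTC, so each match of 3 units also holds matches of 2. The pair was present in 7 of the 8 member windows and in 15.9% of all 33469 windows. The 3 units were present in 4 member windows, those of Hspa8, Hsph1, Hspd1 and Hspe1, and in 0.798% of all windows. The endoplasmic reticulum stress element, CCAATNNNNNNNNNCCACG, was present only in the window of Hspa5 among the 8 members and in 0.0657% of all windows. A match is a description of these letters and not a binding site. The window of Hspa1a, an inducible HSP70 gene that is no member, held no match of any of these patterns. A window without a match does not exclude an element outside it or of a looser form. The windows below show the matches of 3 units, or of the stress element in Hspa5, in capitals.
Hspa8, chr8:50080284-50080493, plus strand: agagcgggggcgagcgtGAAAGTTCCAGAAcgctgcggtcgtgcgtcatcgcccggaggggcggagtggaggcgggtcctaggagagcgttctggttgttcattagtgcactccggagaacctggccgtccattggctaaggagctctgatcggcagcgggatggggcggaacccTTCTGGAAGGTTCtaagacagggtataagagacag
Hsph1, chr12:10427248-10427357, plus strand: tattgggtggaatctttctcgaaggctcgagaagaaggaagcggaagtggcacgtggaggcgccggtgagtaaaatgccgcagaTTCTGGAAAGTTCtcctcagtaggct
Hspe1, chr9:64084217-64084316, plus strand: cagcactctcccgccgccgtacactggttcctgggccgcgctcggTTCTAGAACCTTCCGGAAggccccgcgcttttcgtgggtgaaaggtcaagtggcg
Hspa5, chr3:38452926-38453015, plus strand: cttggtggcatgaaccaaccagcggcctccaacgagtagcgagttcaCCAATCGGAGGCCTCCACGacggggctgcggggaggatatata
Hspa8 held 2 such matches, beginning 213 and 55 bases before the start of the gene, and that of Hsph1 began 36 bases before it. Hspe1 and Hspd1 are transcribed away from each other, with their starts 290 bases apart, and their windows overlap by 211 bases. The same run of heat-shock units, 2 overlapping matches at chr9:64084262-64084279, therefore lies in both windows. It begins 65 bases before the start of Hspe1 and 242 bases before that of Hspd1. Bag3, Hspb1 and Dnajb1 held the pair only.

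**Figure D1:**
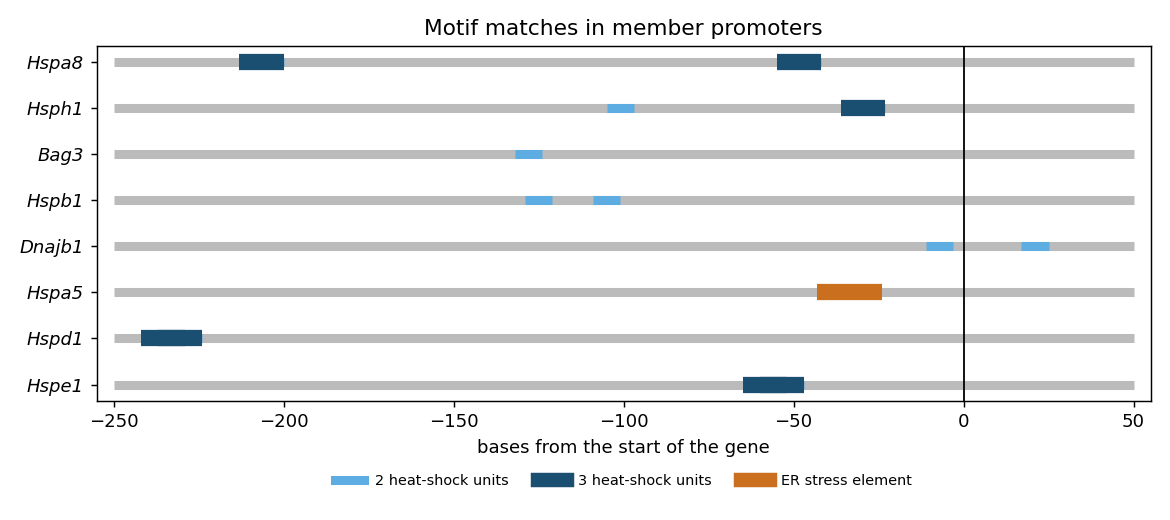
Position of motif matches in the promoter windows of 8 members, in bases from the start of the gene (vertical line at 0). Light blue bars are matches of 2 heat-shock units, dark blue bars of 3 units and the orange bar is the endoplasmic reticulum stress element of Hspa5, 43 bases before the start. The 3-unit matches lie in Hspa8, Hsph1, Hspd1 and Hspe1.

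The probe sequences set what each measurement can tell apart. Each probe has 60 bases, and its position is that of the files, on assembly rn3. The probes of Hsph1 and Hspb1 shared no run of 20 or more bases with a probe of another gene on the array. Hspa8 has near copies in the rat genome, and 3 probes of other names shared such a run with an Hspa8 probe. For Hspd1, a probe with no gene name shared runs of 28 and 27 bases with the probes 2 and 3 shown, and a probe named LOC292958 shared a run of 26 bases with the dimmest. The 2 Hspd1 probes shown share a run with each other, in capitals. For the Hspa8 probe and the probe named LOC310385, the capitals mark the 5 of 54 aligned bases that differ, which are A1C, G6T, A9G, G13A and C42T, with positions counted from 1 at the 5′ end of the Hspa8 probe.
Hsph1, chr12:5809732-5809791, plus strand: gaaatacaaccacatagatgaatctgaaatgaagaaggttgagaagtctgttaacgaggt
Hspb1, chr12:21898758-21898928, minus strand: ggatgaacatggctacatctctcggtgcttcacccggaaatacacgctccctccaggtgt
Hspa8, chr8:43794585-43794656, plus strand: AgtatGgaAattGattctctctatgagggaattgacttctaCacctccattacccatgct
LOC310385, chr2:133353113-133353172, plus strand: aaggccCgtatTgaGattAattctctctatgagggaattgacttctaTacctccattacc
Hspd1, probe 2 by brightness, chr9:53886190-53886434, minus strand: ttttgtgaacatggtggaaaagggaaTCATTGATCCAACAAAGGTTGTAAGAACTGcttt
Hspd1, probe 3 by brightness, chr9:53885607-53885645, minus strand: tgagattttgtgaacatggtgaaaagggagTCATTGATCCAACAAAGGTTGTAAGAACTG
The span of the Hspb1, Hspa8 and both Hspd1 positions differs from the 60 bases of the probe, and which part of the transcript a probe covers was not looked up for lack of an rn3 annotation in use here. The run shared by the 2 Hspd1 probes is 30 bases long, so they are not independent measurements of the gene.

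Values below are log2 processed signal minus the 75th percentile of the array, called the scaled level, and a difference is the mean of occlusion minus the mean of control arrays on that scale. Per array, 65.0% to 71.6% of spots stood well above background and 1.05% to 1.55% were saturated. The 75th percentile of processed signal ran from 1370 to 2134. Correlations between arrays ran from 0.953 to 0.986. Occlusion array 1 had the most spots with an outlier flag, 1.87% against 0.675% to 1.003% on the others, and such spots were left out. Markers of thalamic relay neurons averaged scaled levels of 0.15 to 0.78 on occlusion and -1.01 to 0.22 on control arrays, with 11 of 11 measured genes higher and a median difference of 0.90. Markers of the reticular nucleus and GABA neurons averaged -2.79 to -0.64 on occlusion and -1.002 to 1.06 on control arrays, with 8 of 9 lower and a median difference of -1.33. The part of these 2 lists in the results below was not tested. In bulk tissue, fewer cells of a type and less RNA per cell cannot be told apart.

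The heat-shock members as a group showed no change after tracheal occlusion that the arrays could resolve. Of the 17 probes, 15 passed the filter on dim probes, for 9 of the 10 genes. By limma with Benjamini-Hochberg adjustment over all 27154 kept probes, 0 of 15 passed an adjusted p of 0.05, with the smallest at 0.439. Over all kept probes 0% passed, with the smallest adjusted p at 0.414. At an unadjusted p under 0.05 there was 1 member probe of 15, that of Bag3, against 10.8% of all kept probes. In 0 of 15 did the groups not overlap, against 6.37% of all kept probes. The difference was above 0 for 10 and below 0 for 5 member probes, with a median of 0.10, against 56.6% above 0 and a median of 0.04 over all kept probes. Without the 3 saturated probes it was above 0 for 7 and below 0 for 5, with a median of 0.07. For 7 of these 12 never-saturated probes the whole 95% interval of the difference lay within a 1.5-fold change in either direction. These were all the probes of Hspd1, some of which share bases, those of Hspb1 and Hspe1, and the dimmer of Dnajb1. The never-saturated probes of Hspa8, Hsph1, Bag3 and Cryab were not among them. The brightest Hspd1 probe had no saturation flag, but its processed signal, 46348 to 63924, reached that of saturated Hspa8 probes. Whether this narrowed its interval was not tested.

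**Figure D2:**
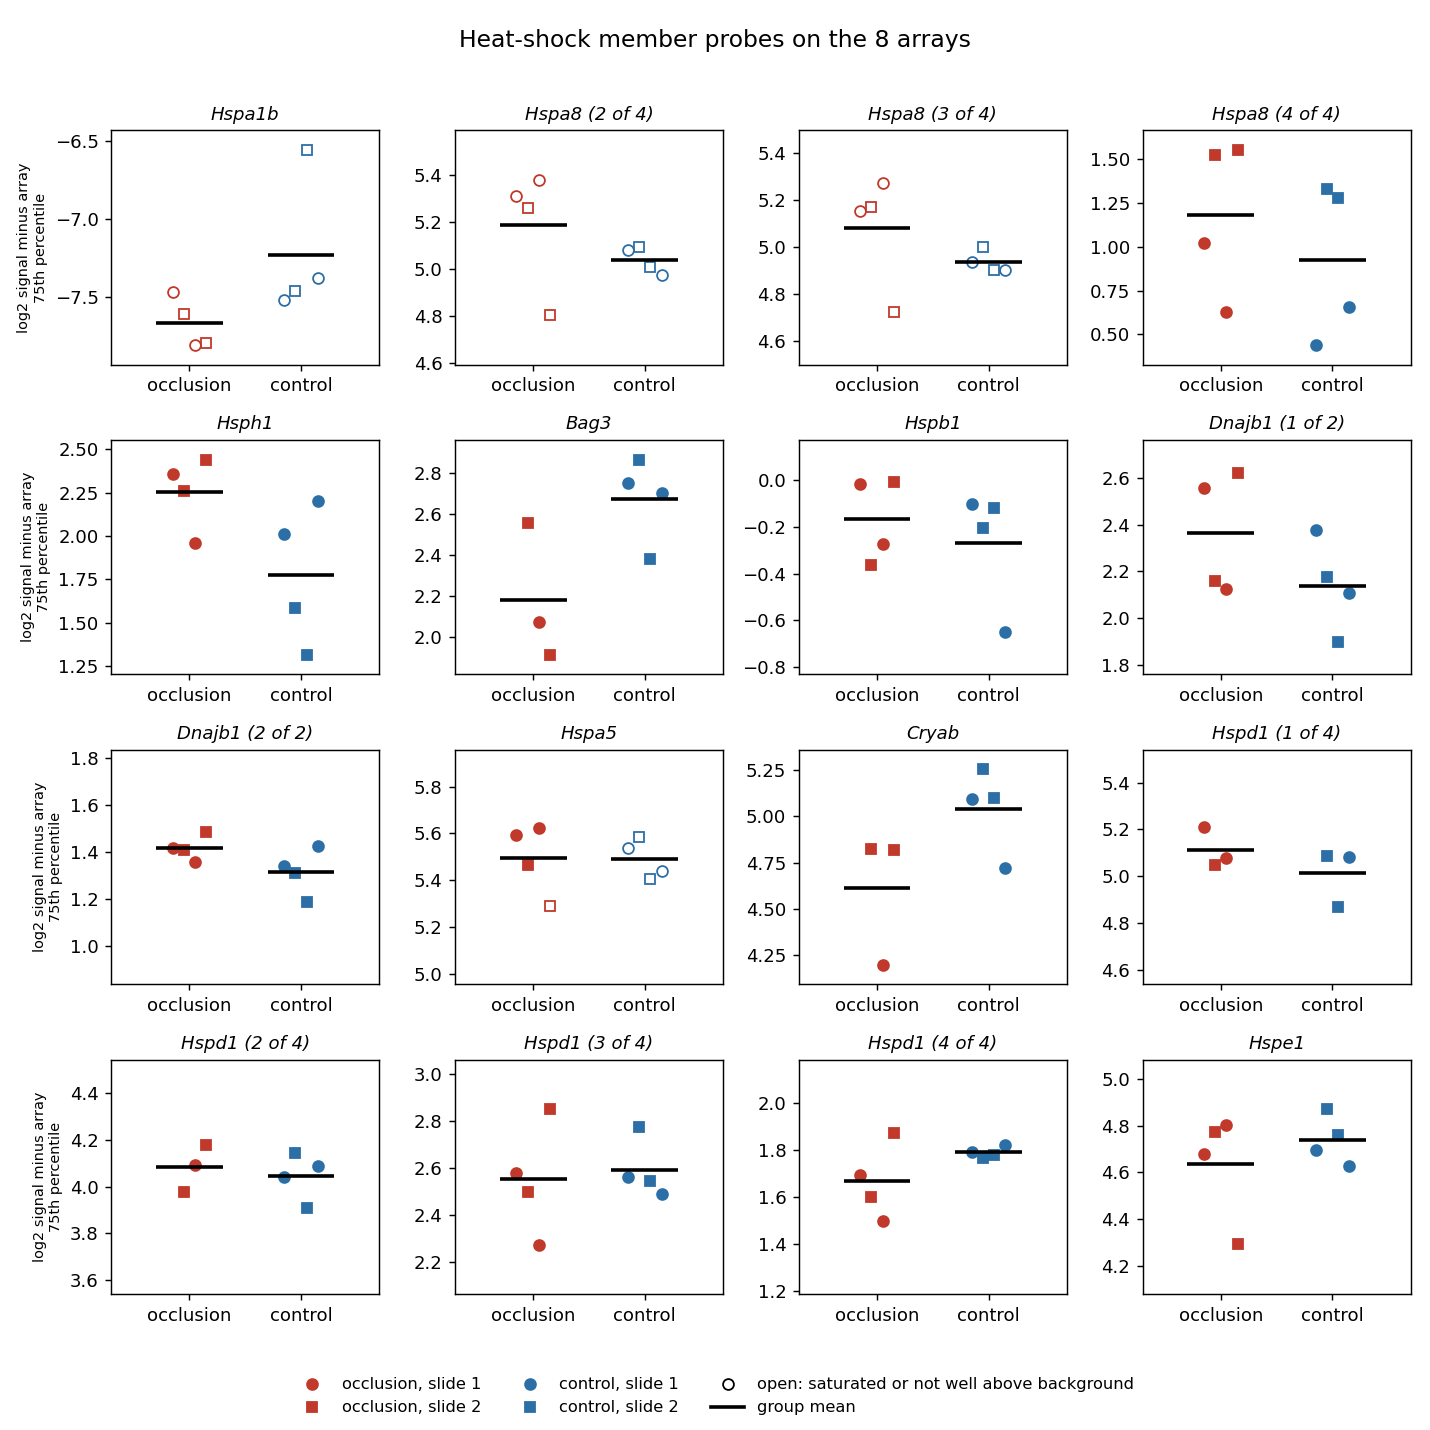
Scaled level (log2 signal minus the array's 75th percentile) of 16 member probes, occlusion left and control right in each panel. Each point is 1 rat, circles are slide 1 and squares slide 2, open points are saturated or not well above background, and lines are group means. Panels of 1 gene are numbered from its brightest probe, and each panel has its own axis. The groups overlap in all 16 panels, and all 8 points of Hspa1b are open.

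Hspa1b encodes a cytosolic HSP70 that is made in large amounts after heat shock and other stress. Its single probe, at chr20:3958509-3958568 of rn3, was not well above background on any of the 8 arrays. Its scaled levels were -7.47, -7.61, -7.81 and -7.80 on occlusion arrays 1 to 4, against -7.52, -7.46, -6.56 and -7.38 on control arrays 1 to 4. The dimmest probe flagged well above background on an array lay between -5.72 and -5.27, so every array was under it in both groups and no fold is given. The neighbouring Hspa1a, a nearly identical inducible HSP70 that is no member, has 2 kept probes, and the files list 1 accession for both the Hspa1b probe and the Hspa1a probe with 10 spots. That Hspa1a probe was well above background on 8 of 8 arrays, with scaled levels of -1.28 to -1.01 on occlusion and -1.48 to -0.77 on control arrays. Its difference was -0.04 ± 0.16 (SE, adjusted p = 0.951 by limma). The second Hspa1a probe had a difference of -0.26 ± 0.17 (SE, adjusted p = 0.602 by limma), and both overlapped between the groups. Which of the 2 nearly identical transcripts each of these probes detects was not settled, so the signal of the probe with 10 spots may include Hspa1b, and the statement on background holds for the probe named Hspa1b alone.

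Hspa8 encodes the constitutive cytosolic HSP70, which also strips clathrin from vesicles in nerve endings. Of its 4 probes, 2 were saturated on 8 of 8 arrays and give only a bound on each level. The brighter of these had scaled levels of 5.31, 5.26, 5.38 and 4.80 on occlusion arrays, against 5.08, 5.09, 5.01 and 4.97 on control arrays. Before scaling, its processed signal spanned only 57094 to 59595 on occlusion and 57872 to 60673 on control arrays, so its scaled level mainly carries the array's own percentile. The differences of the 2 saturated probes were 0.15 ± 0.14 and 0.15 ± 0.14 (SE), and no change in the transcript can be read from them in either direction. The probe that was never saturated had scaled levels of 1.02, 1.53, 0.63 and 1.55 on occlusion arrays, against 0.44, 1.33, 1.28 and 0.65 on control arrays. All 4 arrays of slide 2 were above all 4 of slide 1 on this probe, while the groups overlapped. Its difference was 0.26 ± 0.28 (SE, adjusted p = 0.762 by limma), with a 95% interval from -0.38 to 0.90. Within slide 1 it was 0.28 and within slide 2 it was 0.24. Leaving out 1 array at a time gave 0.10, without control array 1, to 0.44, without occlusion array 3. It was 0.14 without occlusion array 2, 0.14 without occlusion array 4, 0.17 without control array 4 and 0.39 without control array 2. The fourth probe had an outlier flag on 4 arrays and was not kept. It read 5.67 on occlusion array 3, against 5.38, 5.53 and 5.28 on control arrays 1, 2 and 4, and was saturated on 1 control array. With the flagged spots kept, it read 4.76 to 5.60 on occlusion and 5.12 to 5.47 on control arrays, so the groups overlapped.

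The near copies of Hspa8 offered levels that were not saturated. The LOC310385 probe had scaled levels of 4.61 to 4.99 on occlusion and 4.52 to 4.88 on control arrays, a difference of 0.08 ± 0.13 (SE, adjusted p = 0.860 by limma). A probe named LOC679385, which shared a run of 21 bases, had 4.78 to 5.05 on occlusion and 4.57 to 4.80 on control arrays, a difference of 0.23 ± 0.12 (SE, adjusted p = 0.503 by limma). Another probe, with no gene name, shared a run of 35 bases with the brighter saturated Hspa8 probe but was far dimmer. It had scaled levels of -0.26 to 0.53 on occlusion and -0.06 to 0.41 on control arrays. Its difference was 0.07 ± 0.21 (SE, adjusted p = 0.928 by limma). Whether such probes bind Hspa8 RNA or that of a copy cannot be told apart here.

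Hsph1 encodes HSP105, an HSP110-family protein that exchanges the nucleotide of HSP70 and so restarts its cycle. It had the largest positive difference among the member probes. Its scaled levels were 2.36, 2.26, 1.96 and 2.44 on occlusion arrays, against 2.01, 1.58, 1.31 and 2.20 on control arrays. The occlusion arrays were mostly above the control arrays, but occlusion array 3 lay below control arrays 1 and 4. The difference was 0.48 ± 0.21 (SE), with a 95% interval from -0.0055 to 0.96 (unadjusted p = 0.0521, adjusted p = 0.463 by limma). It was 0.05 within slide 1 and 0.90 within slide 2, where control arrays 2 and 3 held the lowest levels of all. Leaving out 1 array at a time gave 0.32 to 0.62.

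Dnajb1 encodes HSP40, the J-domain protein that hands substrates to HSP70 and stimulates its ATPase. Its brighter probe had scaled levels of 2.55, 2.16, 2.12 and 2.62 on occlusion arrays, against 2.37, 2.17, 1.90 and 2.11 on control arrays. The second had 1.42, 1.41, 1.36 and 1.49 on occlusion arrays, against 1.34, 1.31, 1.19 and 1.42 on control arrays. The groups overlapped on both. The differences were 0.22 ± 0.16 and 0.10 ± 0.10 (SE, adjusted p = 0.638 and 0.736 by limma), and the interval of the second, -0.13 to 0.33, was the narrower. Leaving out 1 array at a time gave 0.14, without occlusion array 4, to 0.30, without occlusion array 3, for the brighter probe. For the second it gave 0.06, without control array 3, to 0.14, without control array 4.

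Bag3 encodes a co-chaperone that links HSP70 to small heat-shock proteins and to the autophagy of aggregates. It was the only member probe under an unadjusted p of 0.05. Occlusion array 1 had an outlier flag and gave no value, so the fit used 3 occlusion arrays. Scaled levels were 2.56, 2.07 and 1.91 on occlusion arrays 2 to 4, against 2.75, 2.87, 2.38 and 2.70 on control arrays. Occlusion array 2 was above control array 3, so the groups overlapped. The difference was -0.50 ± 0.20 (SE, unadjusted p = 0.0370, adjusted p = 0.439 by limma), with a 95% interval from -0.95 to -0.04. It was -0.66 within slide 1, from 1 occlusion array, and -0.39 within slide 2. With the flagged spot kept, all arrays being rescaled, occlusion array 1 read 2.16 and the difference was -0.48 ± 0.17 (SE, adjusted p = 0.405 by limma).

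Hspb1 encodes HSP27, a small heat-shock protein that holds unfolding proteins and guards actin filaments. Its probe was printed in 10 spots per array, and the SD between the spots of an array was 0.042 to 0.095. Scaled levels were -0.02, -0.36, -0.27 and -0.01 on occlusion arrays, against -0.10, -0.20, -0.12 and -0.65 on control arrays. The groups overlapped, and control array 4 was the lowest of all. The SD between the 8 arrays was 0.213. The difference was 0.10 ± 0.16 (SE, adjusted p = 0.849 by limma), with a 95% interval from -0.26 to 0.47.

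Cryab encodes alpha B-crystallin, a small heat-shock protein abundant in oligodendrocytes and astrocytes. Occlusion array 1 again had an outlier flag and gave no value. Scaled levels were 4.82, 4.20 and 4.82 on occlusion arrays 2 to 4, against 5.09, 5.25, 5.10 and 4.72 on control arrays. Occlusion arrays lay below control arrays except for control array 4, which was lower than occlusion arrays 2 and 4. The difference was -0.43 ± 0.21 (SE, adjusted p = 0.496 by limma), with a 95% interval from -0.91 to 0.05. It was -0.71 within slide 1, from 1 occlusion array, and -0.36 within slide 2. Leaving out 1 array at a time gave -0.54 to -0.22, with -0.22 reached without occlusion array 3, the lowest of all. With the flagged spot kept it was -0.37 ± 0.19 (SE, adjusted p = 0.494 by limma). The myelin and oligodendrocyte markers averaged 0.88 to 1.69 on occlusion and 1.24 to 2.01 on control arrays, with 13 of 15 measured genes lower and a median difference of -0.41. Mbp, which encodes myelin basic protein, was read by a brightest probe saturated on 6 of 7 measured arrays, with a difference of 0.34 ± 0.12 (SE), while its other probe had -0.54. The part of this list in the difference of Cryab was not tested.

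Hspa5 encodes BiP, the HSP70 of the endoplasmic reticulum which also binds the sensors of the unfolded protein response and keeps them inactive. Its probe was saturated on 1 occlusion and 4 control arrays. Scaled levels were 5.60, 5.47, 5.62 and 5.29 on occlusion arrays, against 5.54, 5.58, 5.40 and 5.44 on control arrays. The groups overlapped fully. The difference was 0.0017 ± 0.11 (SE, adjusted p = 0.997 by limma), and since the signal was near its ceiling this does not bound the transcript.

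Hspd1 and Hspe1 encode HSP60 and HSP10, the barrel and the lid of the mitochondrial chaperonin. The brightest Hspd1 probe had scaled levels of 5.21, 5.05 and 5.08 on occlusion arrays 1 to 3, against 5.09, 4.87 and 5.08 on control arrays 2 to 4, with occlusion array 4 and control array 1 left out for an outlier flag. The second had 3.98, 4.09 and 4.18 on occlusion arrays 2 to 4, against 4.04, 4.14, 3.91 and 4.09 on control arrays. The third had 2.58, 2.50, 2.27 and 2.85 on occlusion arrays, against 2.56, 2.77, 2.54 and 2.49 on control arrays. None of these 3 probes separated the groups. The dimmest had 1.69, 1.60, 1.50 and 1.87 on occlusion arrays, against 1.79, 1.77, 1.78 and 1.82 on control arrays, so the control arrays lay within the spread of the occlusion arrays. The 4 differences were 0.10 ± 0.14, 0.04 ± 0.12, -0.04 ± 0.14 and -0.12 ± 0.11 (SE), with adjusted p between 0.710 and 0.944 by limma. The 2 probes of other names that shared runs with Hspd1 probes had differences of 0.03 ± 0.29 for the one with no gene name and -0.10 ± 0.13 for LOC292958 (SE, adjusted p = 0.980 and 0.811 by limma). Whether the Hspd1 probes also bind RNA of these sequences was not tested. Hspe1 had 4.68, 4.77, 4.80 and 4.29 on occlusion arrays, against 4.70, 4.87, 4.76 and 4.63 on control arrays. Its difference was -0.10 ± 0.14 (SE, adjusted p = 0.823 by limma), and occlusion array 4 was the lowest of the 8.

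**Figure D3:**
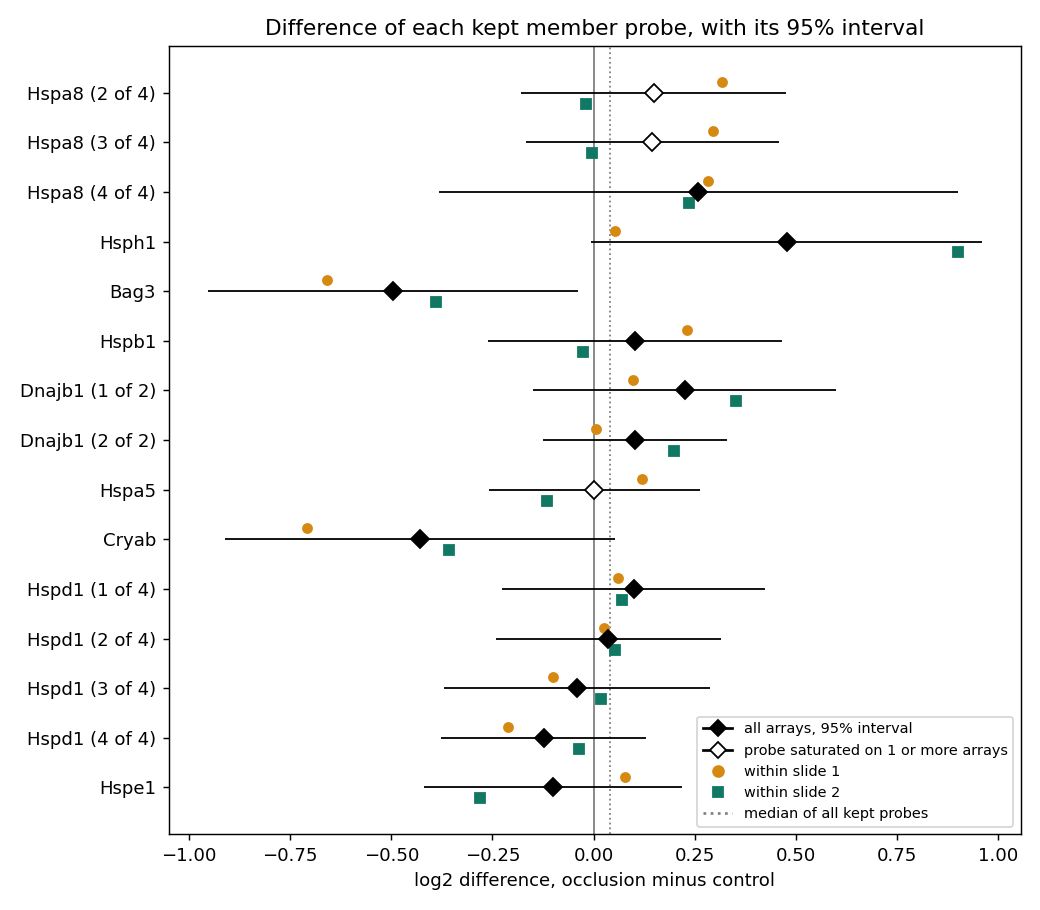
Log2 difference (occlusion minus control) of the 15 kept member probes with its 95% interval, with the difference within slide 1 as a circle and within slide 2 as a square. White diamonds are probes saturated on 1 or more arrays, and the dotted line is the median of all kept probes, 0.04. Only the interval of Bag3 leaves out 0, before adjustment, and that of Hsph1 reaches from -0.0055 to 0.96.

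Several small differences had opposite signs in the 2 slides, where each rests on at most 2 arrays per group. Whether the slide was the cause was not tested. The within-slide differences had 1 sign in both slides for 9 of 15 member probes. Bag3 and Cryab were below 0 and Hsph1, Dnajb1 and the never-saturated Hspa8 probe above 0 in both. With the slide as a block, no member passed either, and the smallest adjusted p of a member was 0.254 by limma, for Cryab, with a difference of -0.50.

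The other genes of the chaperone network were read through 9 lists by role, 104 genes with a kept probe of 110 on the array, each gene by its brightest kept probe. The genes named as the ends of a list are those with the lowest and highest moderated statistic of limma, which weighs a difference by its error. Of the 104, 0 passed an adjusted p of 0.05 by limma, with the smallest at 0.414. At an unadjusted p under 0.05 there were 5, 4.81%, against 10.5% of the 13724 named genes. The groups did not overlap in 9 of 104, against 6.50% of the named genes. The difference was above 0 in 71 of 104 genes, 68.3%, with a median of 0.06, against 55.9% and a median of 0.03 over the named genes.

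Among regulators of the heat-shock response, 4 of 6 genes had a difference above 0 and the median was 0.06. Hspbp1, which releases nucleotide from HSP70, averaged 0.97 ± 0.07 on occlusion and 0.61 ± 0.12 on control arrays (SD, n = 4 each), a difference of 0.36 ± 0.11 (SE, adjusted p = 0.414 by limma). Its groups did not overlap. Atf5, a transcription factor of the mitochondrial unfolded protein response, was at the other end with -0.32 ± 0.15 (SE).

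In the HSP70 and HSP110 family, 4 of 8 genes were above 0 and the median was -0.02. Hspa12a, a distant HSP70 relative found in brain, had the largest difference of the 9 lists, 0.59 ± 0.16 (SE, adjusted p = 0.414 by limma). It averaged 4.61 ± 0.22 on occlusion and 4.01 ± 0.25 on control arrays (SD, n = 4 each), and its groups did not overlap. Hspa2, best known from the testis, was lowest with -0.23 ± 0.12 (SE).

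Among HSP90 and its co-chaperones, 13 of 16 genes were above 0 and the median was 0.13. Fkbp5, the glucocorticoid-induced co-chaperone that holds the glucocorticoid receptor in a low-affinity state, averaged 1.55 ± 0.14 on occlusion and 2.04 ± 0.07 on control arrays (SD, n = 4 each). Its difference was -0.49 ± 0.11 (SE, unadjusted p = 0.00215, adjusted p = 0.414 by limma), and the groups did not overlap. Within slide 1 it was -0.53 and within slide 2 it was -0.45. Aarsd1 was highest with 0.33 ± 0.13 (SE). Hsp90aa1 and Hsp90ab1, the cytosolic HSP90 genes, were read by brightest probes saturated on 7 of 7 measured and 8 of 8 arrays, so they count among the 13 but give only bounds. The genes never saturated were above 0 in 10 of 13, with a median of 0.14.

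Among cytosolic J-domain co-chaperones, 12 of 17 genes were above 0 and the median was 0.07, by the moderated statistic from Dnajb4 at -0.38 ± 0.23 to Dnajc6, the auxilin that recruits Hspa8 to clathrin coats, at 0.42 ± 0.19 (SE). In the BAG family, 3 of 4 were above 0, by the moderated statistic from Bag5 at -0.04 ± 0.11 to Bag6 at 0.20 ± 0.11 (SE). The small heat-shock proteins had 4 of 5 above 0, by the moderated statistic from Hspb8, the partner of Bag3, at -0.25 ± 0.31 to Hspb3 at 0.59 ± 0.35 (SE). None of these 26 genes had an unadjusted p under 0.05.

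The cytosolic chaperonin and prefoldin had 9 of 11 genes above 0, with a median of 0.05. By the moderated statistic they ran from Cct6a at -0.23 ± 0.23 to Cct4 at 0.09 ± 0.11 (SE). The endoplasmic reticulum chaperones and the unfolded protein response had 17 of 27 above 0 and 0 under an unadjusted p of 0.05 by limma. By the moderated statistic they ran from Ern1, the kinase and nuclease IRE1 that senses unfolded proteins, at -0.22 ± 0.11 to Pdia5, a disulfide isomerase, at 0.49 ± 0.27 (SE). The mitochondrial chaperones and proteases had 5 of 10 above 0 and a median of 0.02. Clpb, a disaggregase of the mitochondrial intermembrane space, averaged 0.42 ± 0.06 on occlusion and 0.10 ± 0.09 on control arrays (SD, n = 4 each), with a difference of 0.32 ± 0.10 (SE, adjusted p = 0.414 by limma). Clpx, the unfoldase of the matrix protease, was lowest with -0.17 ± 0.10 (SE).

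**Figure D4:**
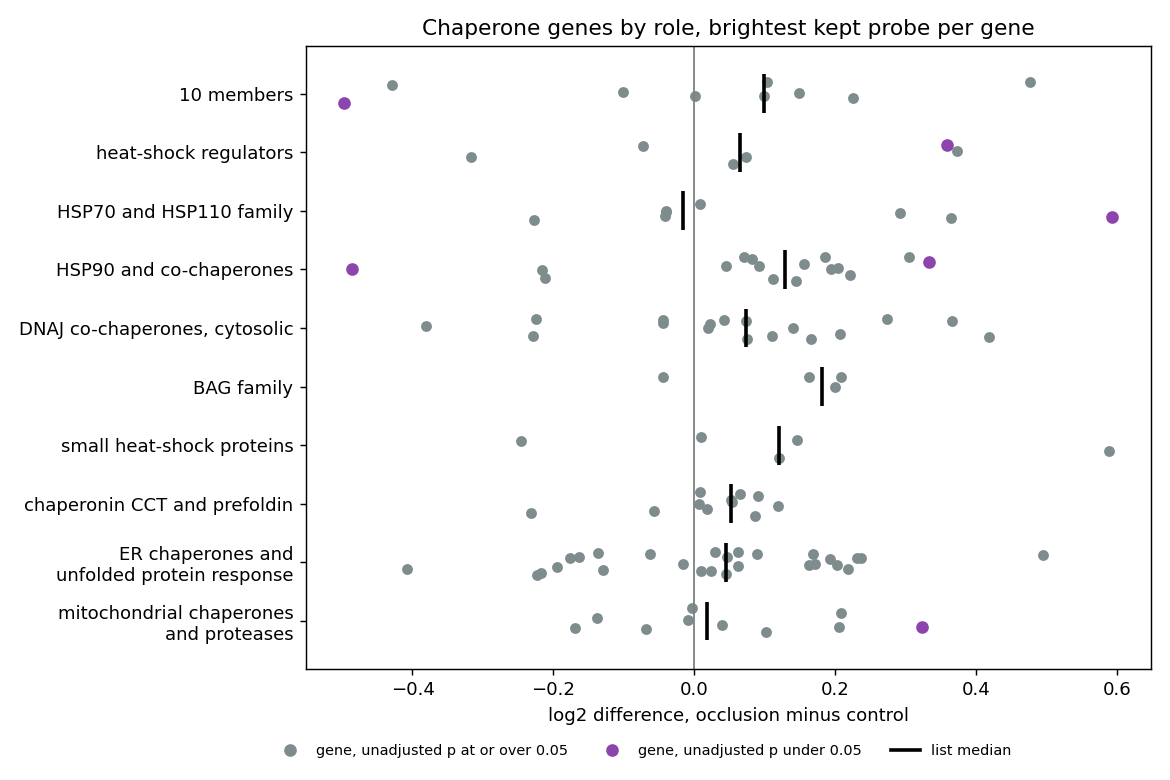
Log2 difference (occlusion minus control) of the 10 members (9 with a kept probe) and of 9 chaperone lists, 1 point per gene, with list medians as black bars. Purple points have an unadjusted p under 0.05, and no point passed adjustment. The list medians lie between -0.02 and 0.18.

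Whether members moved together from rat to rat was asked across the arrays, with 1 probe per gene, the brightest never saturated or else the brightest. Of the 45 pairs, 34 shared at least 6 arrays. By an exact permutation test with Benjamini-Hochberg adjustment over the 34, 0 pairs passed, with the smallest adjusted p at 0.386, and 2 pairs had an unadjusted p under 0.05. Hspa5 and Hspe1 had r = 0.754 and rho = 0.571 over 8 arrays (exact permutation p = 0.0285 and 0.151, adjusted p = 0.386 and 0.846). With slide means removed r was 0.839, but without the 2 arrays farthest from the median of Hspa5 it was 0.230, so the relation rests on those arrays. The Hspa5 probe was also saturated on 1 occlusion and 4 control arrays, where its level is only a bound. Hsph1 and its partner in the HSP70 cycle Dnajb1 had r = 0.743 and rho = 0.690 over 8 arrays (exact permutation p = 0.0356 and 0.0694, adjusted p = 0.386 and 0.786). With slide means removed r was 0.738, and without the 2 arrays farthest from the median of Hsph1 it was 0.635. This used the brighter Dnajb1 probe. The second, never saturated and measured on 8 of 8 arrays, was not set against Hsph1. The count of 0 pairs therefore holds for the chosen probes only. Hspd1 and Hspe1, which share the promoter shown above, had r = -0.238 and rho = -0.0857 over 6 arrays (exact permutation p = 0.710 and 0.919, adjusted p = 0.928 and 0.963), and with slide means removed r was 0.230. Bag3 and Cryab had r = 0.602 and rho = 0.571 over 7 arrays (exact permutation p = 0.152 and 0.200, adjusted p = 0.568 and 0.846). With slide means removed r was 0.771, and without the 2 arrays farthest from the median of Bag3 it was 0.241.

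The members were also set against the mean level of cell type markers across the arrays. This family of 72 relations, 9 members by 8 marker lists, was added after the data had been seen. By Pearson's r, 3 relations passed adjustment over the 72 and none did by rho. No share over all genes is given beside this count, so such r values are not shown to be particular to these members. Hsph1 and the mean of 10 relay neuron markers had r = 0.954 and rho = 0.905 over 8 arrays (exact permutation p = 0.000794 and 0.00456, adjusted p = 0.0286 and 0.162). With group means removed r was 0.926, and with slide means removed 0.953. Without control arrays 2 and 3, the farthest from the median of the markers, r was 0.764 over 6 arrays (exact permutation p = 0.0792). Hsph1 and the reticular and GABA neuron markers had r = -0.829 and rho = -0.786 over 8 arrays (exact permutation p = 0.00871 and 0.0279, adjusted p = 0.157 and 0.503). With slide means removed r was -0.893, and without the 2 arrays farthest from the median of those markers it was -0.707.

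Cryab and the mean of 12 oligodendrocyte and myelin markers had r = 0.947 and rho = 0.929 over 7 arrays (exact permutation p = 0.00119 and 0.00675, adjusted p = 0.0286 and 0.162). With group means removed r was 0.905, with slide means removed 0.930, and without control arrays 2 and 3 it was 0.972 over 5 arrays. Cryab and the mean of 8 astrocyte markers had r = 0.951 and rho = 0.929 over 7 arrays (exact permutation p = 0.000794 and 0.00675, adjusted p = 0.0286 and 0.162). With group means removed r was 0.977 and with slide means removed 0.946, and without control array 2 and occlusion array 3 it was 0.776 over 5 arrays (exact permutation p = 0.0833). These 8 astrocyte markers averaged 1.14 to 1.48 on occlusion and 1.29 to 1.66 on control arrays. Of all 10 measured astrocyte genes, 5 were higher and 5 lower, with a median difference of -0.03. Each slide holds 4 arrays, too few for an r of its own. For Bag3, the list with the smallest p was that of the myelin markers, with r = 0.521 and rho = 0.321 over 7 arrays (exact permutation p = 0.232 and 0.498, adjusted p = 0.701 and 0.953), and with slide means removed r was 0.668.

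**Figure D5:**
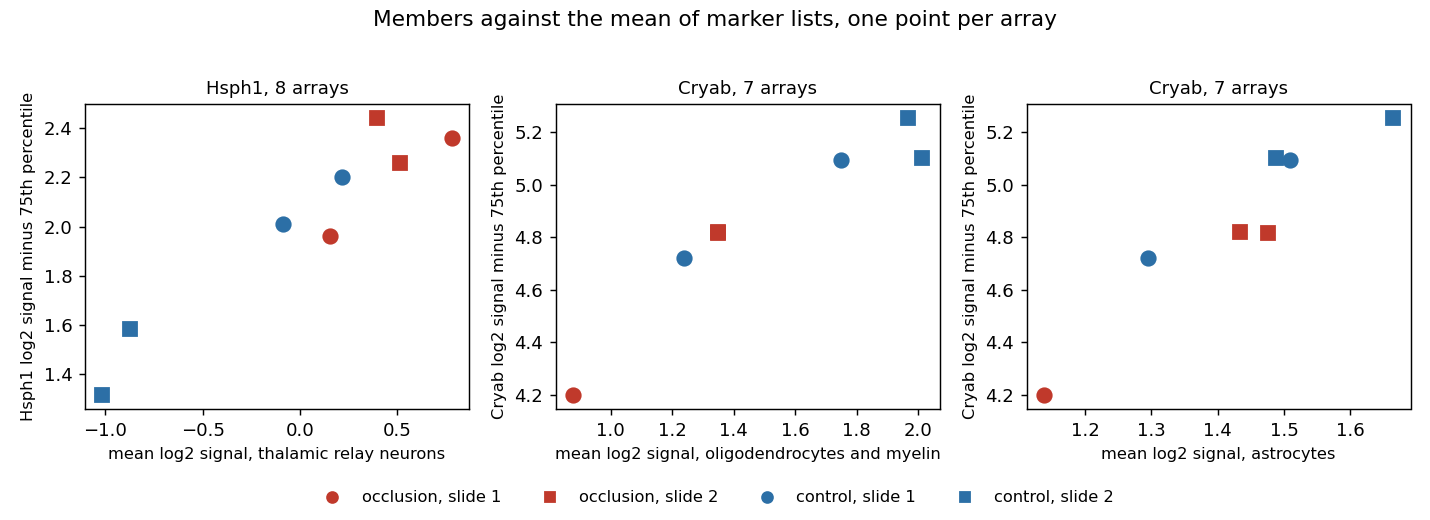
Scaled level of Hsph1 or Cryab (vertical) against the mean scaled level of a marker list (horizontal), 1 point per array, occlusion in red and control in blue, circles for slide 1 and squares for slide 2. Across the arrays, Hsph1 is high where relay neuron markers are high (r = 0.954). Cryab is high where myelin (r = 0.947) and astrocyte markers (r = 0.951) are high. Only 3 occlusion arrays have a Cryab value, and occlusion array 3 is the lowest of these for Cryab and for both lists. Control arrays 2 and 3 are the lowest for Hsph1.

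The genes whose scaled levels were most like those of a member were taken among 13006 genes measured on all 8 arrays, and are a description of arrays that share depth and slide. For Hspb1 over 8 arrays they were Tln1 (r = 0.912), Pnpla6 (r = 0.910) and Sertad3 (r = 0.898). For Cryab over 7 arrays they were RGD1565889 (r = 0.995), Anp32e (r = 0.984) and Tmprss5 (r = 0.983). For Hspa5, whose signal was mostly saturated, they were Tmem256 (r = 0.977), Slc5a5 (r = 0.975) and Tssc4 (r = 0.968) over 8 arrays. None of these 9 genes differed between the groups at an adjusted p of 0.05 by limma. Hspa1b was not compared, being below background.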

How the data were processed

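The authors' scans were read with Agilent Feature Extraction 9.5.1.1, per the file headers, giving each spot a background-subtracted processed intensity and flags. These deposited intensity values are linear and not normalised between arrays. Outlier-flagged and control spots were dropped, saturated ones were not. The array's 75th percentile was subtracted from the log2 signal, and a probe's spots were averaged. Probes well above background on at least 4 of 8 arrays, with at least 2 values per group, were kept (27154 of 41012). They were fitted with limma 3.58.1 in R 4.3.3 (two-sided eBayes test, p-values adjusted by Benjamini-Hochberg across the kept probes). The fit was tested on simulated data. Correlations used exact permutation over pairings. The number of arrays limits the precision.

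The members and lists were chosen with earlier results of these data known. Named are all probes of the members and, in each list, the genes with the highest and lowest moderated statistic. Also named are the 3 genes most like Hspb1, Hspa5 and Cryab by r. Fkbp5's slide values, Hsp90aa1, Hsp90ab1, the Hspa1a probes and the near copies were chosen after values were seen. Alternatives were other scalings, background correction, filters, saturated or outlier spots, slide and replicate blocks, each slide, the deposited table and each array left out. The labels describe 4 rats per group, taken as separate animals.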

Additional observations from a re-analysis of the deposited data

Results flagged for a closer look

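Of the member probes' groups with 4 values, 1 had an array far from the others, where chance flags about 1 in 20. The Hspa1b probe read -6.56 on control array 3, against -7.38 for the nearest and -7.52 for the lowest of the other control arrays, and it was not well above background there either.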

How the results depend on the processing

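Under all 20 alternatives, 0 probes and 0 members passed an adjusted p of 0.05 by limma, and the smallest adjusted p of a member was 0.243, without control replicate 4. The member median, 0.10, moved to 0.020 with quantile normalization, to -0.012 on slide 2 alone and to 0.035 with outlier-flagged spots kept, an alternative chosen after seeing the data. Leaving out 1 array at a time gave 0.027 to 0.11. Of 288 member values, 267 kept their sign and 21 turned, the farthest from 0 being that of Hspa5 with quantile normalization. Hspa5 was -0.17 with quantile normalization, -0.027 with normexp, -0.12 on slide 2 alone, -0.017 with outlier-flagged spots kept and -0.041 to 0.069 with 1 array left out. The brightest Hspd1 probe was -0.089 with quantile normalization and -0.011 with outlier-flagged spots kept. On slide 2 alone, the saturated Hspa8 probes were -0.019 and -0.0044, Hspb1 -0.027 and the third Hspd1 probe 0.017, and on slide 1 alone Hspe1 was 0.078. With 1 array left out, Hspb1 ran from -0.024 to 0.17, the second Hspd1 probe from -0.011 to 0.088, the third from -0.14 to 0.052 and Hspe1 from -0.16 to 0.013. The cause was not tested.

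Whether the replicate numbers pair the rats was not settled. The deviations of equal numbers correlated at 0.355, 0.514, -0.071 and -0.293. The positive values came from equal numbers on the same slide and the negative ones from equal numbers on different slides. Only group means were removed, so slide and pairing cannot be told apart here. With the replicate block, 0 probes and 0 members passed by limma, 2795 probes had an unadjusted p under 0.05, against 2931 without it, and the member median was 0.09. Saturation and 4 arrays per group limit what can be resolved, and the chaperone lists and pairs of members stayed at 0 calls under their alternatives. The probe that stood for each gene in the pairs was not varied.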
